A study of Mus musculus with 4 samples.

Results

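The interaction of microcurrent stimulation (MCS) with time of day was computed for each gene as the log2 ratio of MCS to control at ZT14 minus the same ratio at ZT2. ZT, zeitgeber time, counts the hours after lights on. A positive interaction means that the gene stood higher with MCS, relative to control, at ZT14 than at ZT2. Members were all genes whose mean over the 4 libraries was above 5 CPM, reads scaled to the size of the library, 10180 of the 15298 genes listed, and 0.1 CPM was added to each value before the logarithm was taken. The RNA came from female BALB/c mice, 6 weeks old, whose peritoneal cells were sorted by flow cytometry as CD11b+ F4/80+ Ly6G- cells. According to the study's methods all mice were anesthetized with isoflurane and carried pads on the abdomen and back. The MCS groups received bidirectional pulses of 300 µA at 400 Hz for 15 min at ZT2, and the control groups, labelled as not treated, went through the procedure without current. Cells were taken at ZT2, right after the current, or at ZT14, 12 h after it, so the time of day and the time since the current cannot be told apart. Control at ZT2, MCS at ZT2, control at ZT14 and MCS at ZT14 each have 1 library, and no source used here says how many mice each stands for. No interaction therefore has a replicate check or a test between conditions, and every 95% interval below covers counting error only. Where 4 values are given for a gene or list, they are the CPM in these libraries, in the order just named.

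Peritoneal macrophages are resident phagocytes of the abdominal cavity. Large peritoneal macrophages depend on the transcription factor GATA6 and retinoic acid, whereas small peritoneal macrophages derive from monocytes and present antigen through MHC class II. Like most cells they run a circadian clock, in which CLOCK and ARNTL switch on the *Per*, *Cry* and *Nr1d* genes, whose products hold CLOCK and ARNTL or the *Arntl* gene back. Glucocorticoids, temperature and feeding act on clock genes in peripheral cells, and many metabolic and immune genes vary over the day.

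The reads recovered from the CPM values totaled between 8365590 and 9953243 per library, and 1 read equaled between 0.102 and 0.116 CPM. All 10 macrophage markers were members, with *Lyz2* between 17344 and 18847 CPM and *Adgre1*, which encodes F4/80, between 1086 and 1900 CPM. Markers of other cells were also present. The 10 B cell markers summed to between 1242 and 1799 CPM, and the 10 mast cell markers to between 1087 and 2511 CPM. In a bulk library, fewer cells of a type and less RNA per cell cannot be told apart.

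Most genes differed little between MCS and control. The median absolute log2 ratio over the members was 0.13 at ZT2 and 0.19 at ZT14, and the median interaction was 0.00. The ratios at both times nevertheless leaned in opposite directions, as the plot of the ratio at ZT14 against that at ZT2 shows. Of the 10180 members, 6133 (60.2%) had ratios of opposite sign, and Spearman's rho between the ratios was -0.28 over genes, which are not independent. The ratios at ZT2 and ZT14 share no library. Among the 3671 members above 50 CPM, 65.4% had opposite signs and rho was -0.42. Where the counting intervals of both ratios left out 0, the signs differed in 1218 genes and matched in 288.

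**Figure D1:**
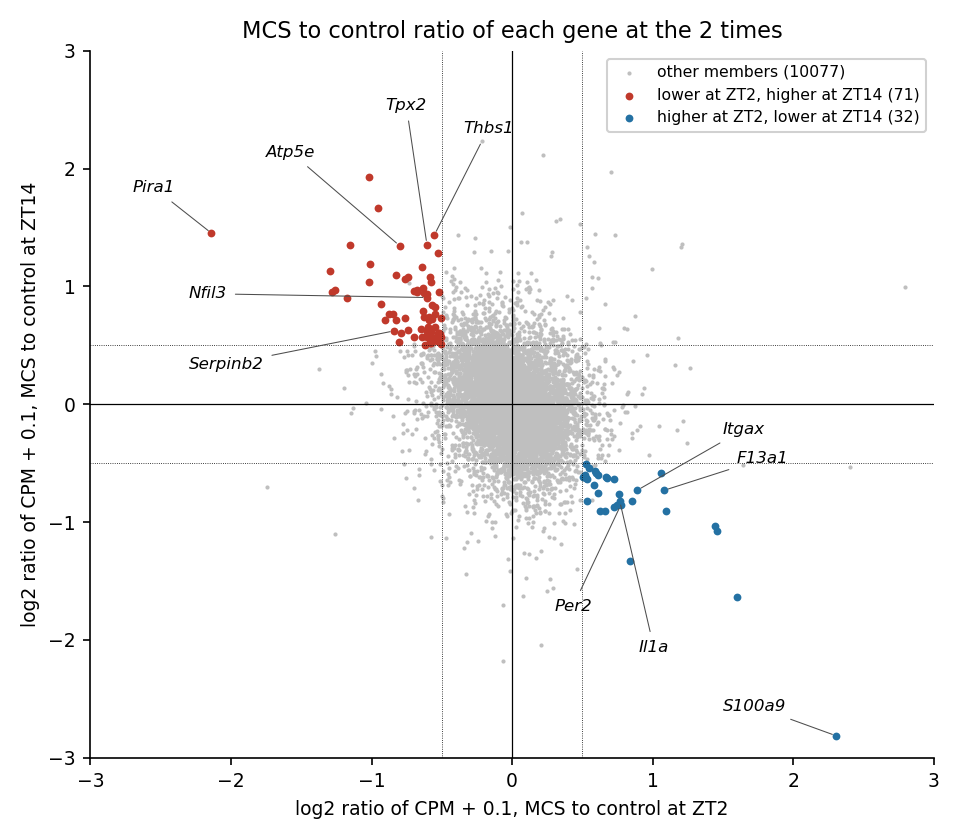
Log2 ratio of MCS to control (CPM + 0.1) at ZT14 on the y axis against ZT2 on the x axis for each of the 10180 members, except 14 outside the plotted range. Colored points are the 71 genes lower at ZT2 and higher at ZT14 and the 32 genes of the opposite pattern, dotted lines mark log2 ratios of 0.5 either way, and the gray cloud tilts from the upper left to the lower right.

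The interaction was above 1, a factor of 2, with its interval off 0 in 235 members (2.31% of all tested) and below -1 in 144 (1.41%). Ratios of opposite sign accounted for 214 of the 235 and 138 of the 144, against 60.2% of all members. A difference between the ratios beyond 1 itself favors opposite signs, so these counts are not a separate result. A gene was said to move in opposite directions when both log2 ratios exceeded 0.5, a factor of 1.41, with opposite signs and both intervals off 0. In 71 genes, 0.697% of the members, the level was lower with MCS at ZT2 and higher at ZT14. In 32 genes, 0.314%, it was higher with MCS at ZT2 and lower at ZT14. For comparison, 26 genes were higher and 7 lower by this margin at both times. Of the 71 and 32 genes, 7 and 5 carry names of predicted or copied genes. Just inside the limit lay *Cox5a*, with log2 ratios of -0.50 and 0.51, and *Zeb1*, with 0.51 and -0.62. Just outside lay *Tmem97*, with -0.70 and 0.496, and *Ppargc1b*, with 0.49 and -0.58.

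Transcript length moved with these values, and its part in them was not tested. Lengths were those of the longest protein-coding transcript in GENCODE, or of the longest transcript for a gene with none, such as the noncoding *Rprl3*. The median length was 1262 bases for the 71 genes lower then higher, 3046 bases for the 32 genes higher then lower and 3241 bases for all members. Over the members, Spearman's rho between length and the interaction was -0.29. In the shortest of 5 groups of equal size, 192 to 1865 bases, the median interaction was 0.21, and 135 genes had an interaction above 1 against 23 below -1. In the longest, from 5258 bases, the median was -0.14, with 17 genes above 1 and 33 below -1. The mean transcript length weighted by reads was 5068, 5080 and 5100 bases in control at ZT2, MCS at ZT2 and control at ZT14, and 4891 bases in MCS at ZT14. When each ratio was centered on genes of like length, an alternative chosen after seeing the data, 43 genes were lower then higher and 40 higher then lower, of which 40 and 31 were among the 71 and 32. Interactions above 1 and below -1 then numbered 166 and 159, and opposite signs held for 59.9% of the members. With library totals left unadjusted, the numbers were 57 and 39 for the opposite movements and 192 and 175 for the interactions.

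**Figure D2:**
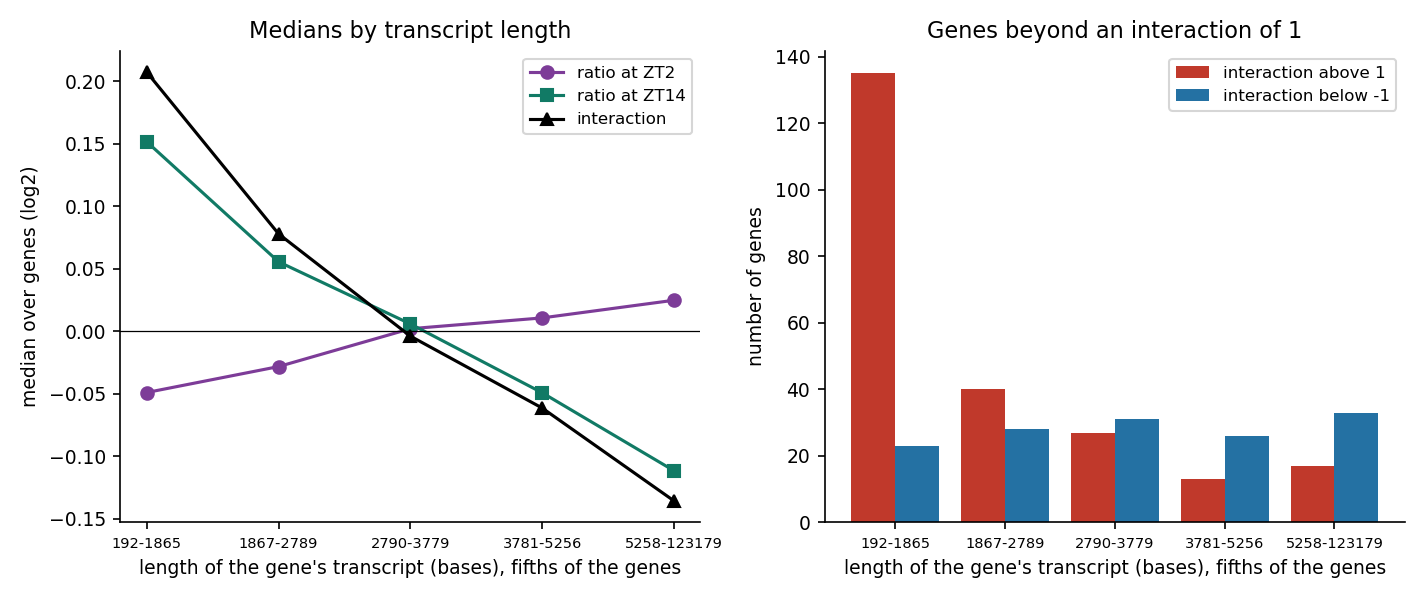
Left, median log2 ratio of MCS to control at ZT2 and at ZT14 and median interaction over 5 groups of members of rising transcript length in bases. Right, number of members with an interaction above 1 or below -1 in the same groups: the counts are 135 and 23 in the shortest group and 17 and 33 in the longest.

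Among the genes lower at ZT2 and higher at ZT14 were 2 of the 20 genes listed for large peritoneal macrophages, against 0.697% of all members. *Thbs1*, at chromosome 2, 118111876 to 118127133 (GRCm38, plus strand), encodes thrombospondin 1, a matrix glycoprotein that binds CD36 and CD47. It had 1376, 938, 73.8 and 200.0 CPM. Both libraries at ZT2 stood far above both at ZT14, and the order of MCS and control was turned between the times. Its interaction was 1.99 (95% interval 1.86 to 2.13). *Serpinb2*, which encodes plasminogen activator inhibitor 2, had 439, 245, 243 and 375 CPM. The libraries of MCS at ZT2 and control at ZT14 were low and nearly level, and the interaction was 1.46 (1.35 to 1.57).

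The large peritoneal macrophage list as a whole had a positive interaction in 16 of its 20 members, with a median of 0.22 against 0.00 for all members. *Fabp7*, a fatty acid binding protein, had 73.5, 61.3, 27.4 and 73.01 CPM. The low value was that of control at ZT14, and the interaction was 1.67 (1.41 to 1.95). *Garnl3* had 94.01, 83.99, 83.05 and 157 CPM, and only MCS at ZT14 stood apart. *Alox15*, a lipoxygenase, had 4015, 3607, 3712 and 5532 CPM, an interaction of 0.73. *Gata6* itself had 69.1, 80.9, 88.98 and 117.3 CPM and was higher with MCS at both times. The most negative member was the chemokine gene *Cxcl13*, which had 193, 222, 437 and 106 CPM and an interaction of -2.25 (-2.39 to -2.11).

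Small peritoneal macrophage genes had the opposite sign. Of 18 members, 15 had a negative interaction, the median was -0.32, and 16 were higher with MCS at ZT2 against 7 at ZT14. *Itgax* encodes CD11c, an integrin of dendritic cells and monocyte-derived macrophages. It had 11.9, 22.2, 11.8 and 7.06 CPM. The controls hardly differed between the times, while MCS was the highest library at ZT2 and the lowest at ZT14, an interaction of -1.62 (-2.22 to -1.05). *Folr2*, the folate receptor beta, had 10.6, 16.9, 13.7 and 8.90 CPM, an interaction of -1.29 (-1.87 to -0.73). *Lyve1*, a hyaluronan receptor, had 23.6, 26.6, 30.9 and 12.5 CPM, so that MCS at ZT14 alone was low. The MHC class II gene *H2-Ab1* had 577, 738, 522 and 548 CPM, and *H2-Eb1* had 509, 514, 465 and 496 CPM. Their interactions were smaller in size than those of *Itgax*, *Folr2* and *Lyve1*.

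Other genes of macrophages and monocytes were higher with MCS at ZT2 and lower at ZT14. *F13a1*, the A subunit of coagulation factor XIII, had 86.96, 184, 148 and 89.5 CPM. The controls were higher at ZT14 and the MCS libraries at ZT2, and the interaction was -1.81 (-1.99 to -1.64). *Clec7a*, which encodes dectin-1, a receptor for fungal glucans, had 36.7, 53.02, 56.02 and 39.4 CPM. *P2ry6*, a receptor for extracellular UDP, had 6.35, 10.1, 14.3 and 7.57 CPM, and *Sulf2*, a sulfatase acting on heparan sulfate, 15.2, 24.4, 15.05 and 9.71 CPM. In *P2ry6* the control at ZT14 was the highest library, and in *Sulf2* MCS at ZT2 was. The interleukin gene *Il1a* had 4.74, 8.12, 16.1 and 9.10 CPM, an interaction of -1.59 (-2.32 to -0.90). Its MCS libraries lay between the controls. Among phagocytic receptors, the scavenger receptor gene *Stab1* had 332, 537, 528 and 416 CPM, an interaction of -1.04, and the Fc receptor gene *Fcgr4* had 42.4, 40.02, 36.1 and 78.9 CPM, an interaction of 1.21. The 21 members of that list had a median of 0.13, with 14 positive.

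**Figure D3:**
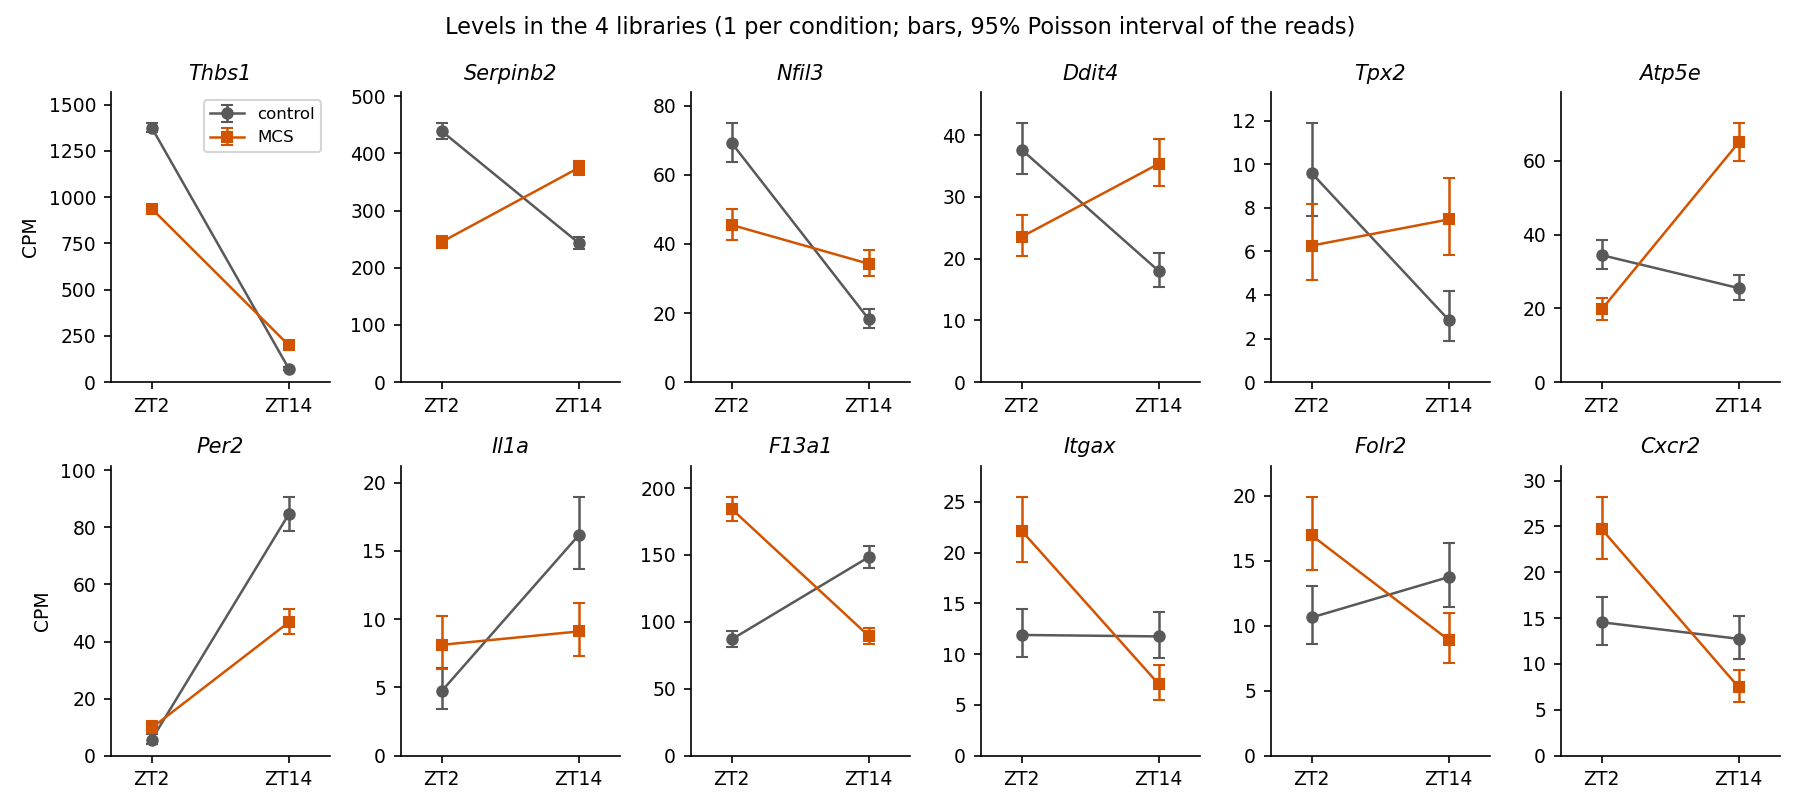
CPM of 12 genes that moved in opposite directions, at ZT2 and ZT14, in control (gray circles) and MCS (orange squares), with 1 library per point and bars giving the 95% Poisson interval of its reads. The lines cross in each panel: MCS lies below control at ZT2 and above it at ZT14 in the upper row, and the reverse in the lower row.

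Clock repressors were the group with the most negative median among the listed gene groups that were not cell markers, -0.92 over 9 members, with 8 negative. At ZT2, 8 of them were higher with MCS, and at ZT14, 7 were lower. Many of these ratios lay within counting error. The intervals of *Per3*, *Cry1*, *Cry2*, *Nr1d1* and *Nr1d2* included 0 at ZT2, and those of *Cry1* and *Cry2* also did at ZT14. *Per2*, at chromosome 1, 91415982 to 91459324 (GRCm38, minus strand), had 5.66, 9.74, 84.6 and 46.7 CPM. It was far higher at ZT14 in both groups, by a smaller factor with MCS, and its interaction was -1.63 (-2.21 to -1.08). *Nr1d1*, which encodes REV-ERB alpha, had 4.27, 4.52, 26.03 and 8.38 CPM. At ZT2 its libraries did not differ beyond counting error, so its interaction of -1.70 (-2.51 to -0.92) lay in the ZT14 ratio, as did that of the output gene *Dbp*, with 2.43, 2.90, 19.6 and 6.44 CPM. *Per1* was the exception, with 157, 118, 70.9 and 79.8 CPM and an interaction of 0.58 (0.39 to 0.78). *Nfil3*, a repressor that competes with DBP for D-boxes, differed the other way. It had 69.2, 45.5, 18.2 and 34.3 CPM, highest in control at ZT2 and lowest in control at ZT14, an interaction of 1.51 (1.18 to 1.85). The activators *Arntl*, with an interaction of 0.31, and *Clock*, with 0.03, had intervals that included 0. The 4 members of the clock output list, *Nfil3* among them, had a median of -0.63.

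Hormone, stress and early response genes divided. Of 14 glucocorticoid targets among the members, 10 had a positive interaction and the median was 0.53. *Ddit4*, an inhibitor of mTOR signaling, had 37.6, 23.5, 18.02 and 35.4 CPM, an interaction of 1.64 (1.27 to 2.03). Control was higher at ZT2 and MCS was higher at ZT14. *Pdk4*, a kinase that restrains pyruvate oxidation, had 11.3 and 13.9 CPM in control and MCS at ZT2. At ZT14 control had no read, and MCS had 8.90 CPM, at least 27.0-fold higher when control is set to 3 reads. *Fkbp5* went against the list with 173, 223, 46.7 and 35.4 CPM, an interaction of -0.76. Immediate early genes, which respond within minutes to growth factors and calcium, had a negative interaction in 17 of 21 members, with a median of -0.27. *Egr1* had 11.2, 12.2, 32.4 and 13.4 CPM, and *Egr3* had 6.81, 6.50, 10.98 and 2.35 CPM. In both genes MCS and control differed beyond counting error at ZT14 and not at ZT2. *Dusp1*, a phosphatase that inactivates MAP kinases and is both an early and a glucocorticoid response gene, had 139, 124, 123 and 224 CPM, an interaction of 1.03 (0.87 to 1.19). Heat shock genes split evenly, 9 of 18 positive, with a median of -0.00228. The cold-inducible genes *Cirbp* and *Rbm3* had interactions of 0.57 and 0.64.

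Genes of oxidative phosphorylation had a median interaction of 0.61, positive in 38 of 42 members. The median log2 ratio was -0.17 at ZT2 and 0.39 at ZT14. An interaction above 1 was found in 6 of 42 against 2.31% of all members, and 5 moved in opposite directions against 0.697%. *Atp5e*, the epsilon subunit of ATP synthase, had 34.4, 19.7, 25.5 and 64.9 CPM, an interaction of 2.15 (1.79 to 2.51). MCS was the lowest library at ZT2 and the highest at ZT14. The same order held for *Cox7a2*, a subunit of cytochrome c oxidase, with 23.6, 15.7, 17.1 and 36.3 CPM. It also held for the complex I genes *Ndufa2*, with 19.3, 12.4, 15.2 and 30.1 CPM, and *Ndufs3*, with 27.1, 17.98, 22.8 and 37.6 CPM. *Cox7c* went the other way, with 36.8, 49.3, 41.4 and 41.003 CPM and an interaction of -0.43. The abundant *Atp5a1* had 333, 306, 308 and 387 CPM, an interaction of 0.45.

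Ribosomal protein genes had a median interaction of 0.39, positive in 38 of 45 members, and log2 ratios of -0.15 at ZT2 and 0.25 at ZT14. *Rplp1*, of the ribosomal stalk, had 307, 202, 274 and 523 CPM, an interaction of 1.54 (1.43 to 1.65). *Rpl34* had 15.2, 9.51, 14.2 and 27.5 CPM, an interaction of 1.63. *Rpl27*, with 110.3, 132, 131 and 106 CPM, and *Rpl38*, with 241, 271, 263 and 208 CPM, moved the other way. Both groups consist of short transcripts, with medians of 1110 and 975 bases. Centered on genes of like length, the median interaction was 0.37 for oxidative phosphorylation, positive in 34 of 42, and 0.25 for ribosomal proteins, positive in 31 of 45. *Rplp1* shares 30% of its 100-base windows with other annotated transcripts.

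Proliferation genes differed mainly at ZT14, and their lengths were near or above those of the members. The 17 mitosis genes had a median log2 ratio of 0.04 at ZT2 and 0.53 at ZT14, and 14 had a positive interaction. *Tpx2*, a spindle assembly factor, was the one that moved in opposite directions, with 9.59, 6.26, 2.86 and 7.46 CPM. The interaction was 1.96 (1.14 to 2.88). *Top2a*, a topoisomerase of dividing cells, had 29.9, 29.3, 12.9 and 31.9 CPM. Control at ZT14 was the library that stood apart. The 19 DNA replication genes had a median interaction of 0.36, with 16 positive, and *Mcm5*, of the replicative helicase, had 23.6, 21.5, 12.96 and 25.1 CPM. Centered on length, the medians were 0.43 and 0.35.

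**Figure D4:**
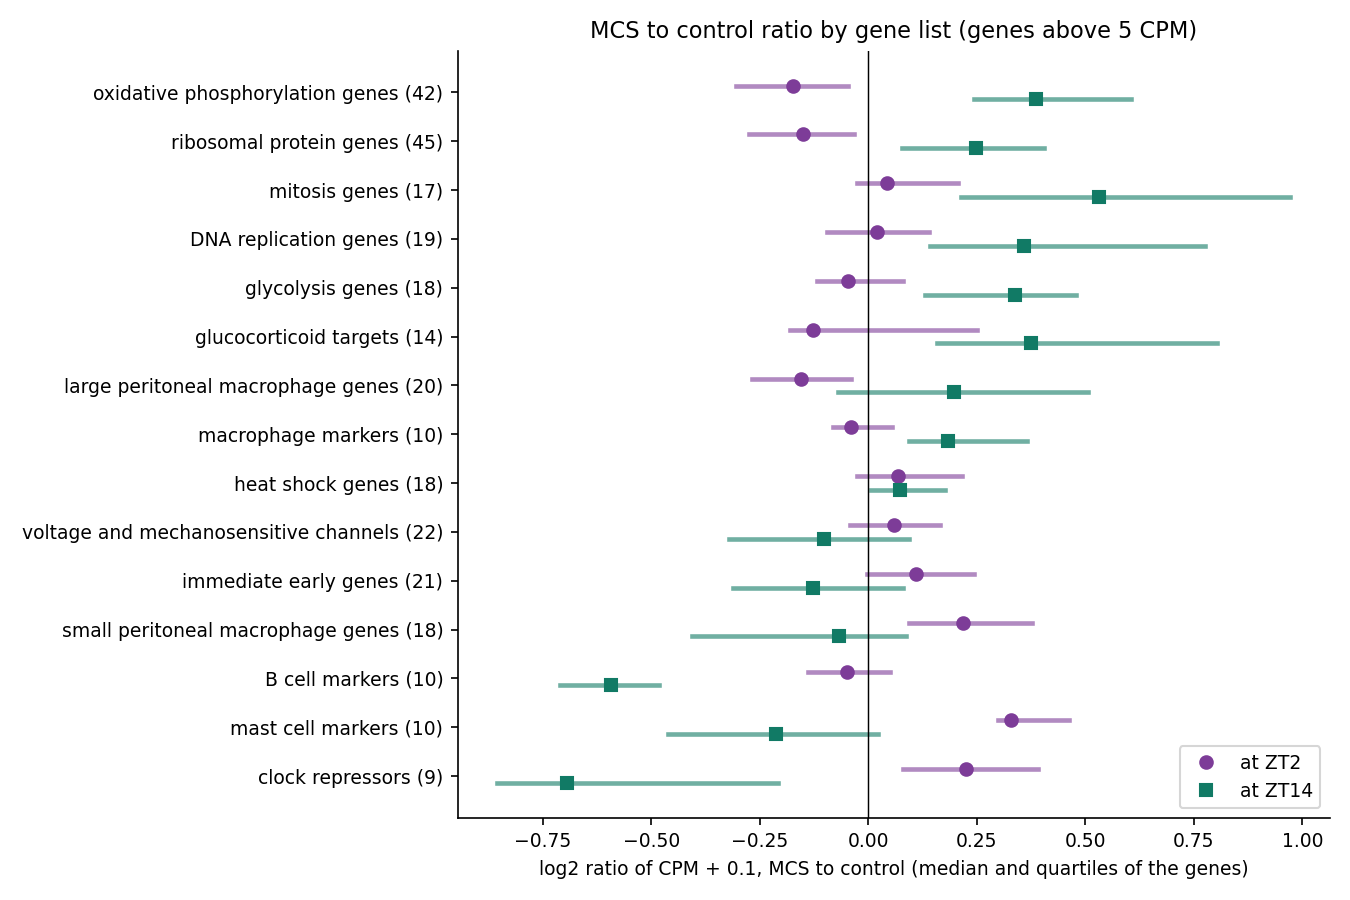
Median log2 ratio of MCS to control (CPM + 0.1) at ZT2 (purple circles) and at ZT14 (green squares) for 15 gene lists, with lines from the lower to the upper quartile over the list's members and the number of members in parentheses. Oxidative phosphorylation genes lie at -0.17 and 0.39 and clock repressors at 0.22 and -0.69, on opposite sides of 0.

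Glycolysis genes had a median interaction of 0.40, positive in 15 of 18, with *Ldha*, lactate dehydrogenase A, at 258, 243, 247 and 369 CPM. Targets of the oxidative stress factor NRF2 had a median of 0.36, positive in 12 of 15. *Slc7a11*, the cystine and glutamate exchanger, had 9.35, 6.15, 9.78 and 15.4 CPM, an interaction of 1.25 (0.61 to 1.93). *Txn1*, thioredoxin, had 101, 72.04, 96.3 and 151 CPM. In both genes the controls differed by less than the MCS libraries. *Plin2*, a lipid droplet protein, had 273, 347, 94.6 and 281 CPM and so was higher with MCS at both times, with an interaction of 1.23. Of 22 voltage and mechanosensitive channel genes, which are of interest for an electric stimulus, 13 had a negative interaction and the median was -0.14. *Kcna3*, a voltage-gated potassium channel, had 7.62, 11.6, 9.996 and 6.65 CPM, an interaction of -1.18 (-1.87 to -0.52). *Cacna1e*, a voltage-gated calcium channel, had 301, 333, 332 and 166 CPM, with MCS at ZT14 alone low.

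Markers of other cells moved with the interaction as well, and their part in the results above was not tested. The sort had gated out Ly6G+ cells, which include neutrophils. The most negative interaction of a marker was that of *S100a9*, a calgranulin of neutrophils and monocytes, with 6.70, 33.5, 9.23 and 1.23 CPM. MCS was the highest library at ZT2 and the lowest at ZT14, an interaction of -5.12 (-6.32 to -4.23). Its partner *S100a8* had 5.89, 18.6, 5.16 and 3.58 CPM, and the chemokine receptor gene *Cxcr2* had 14.6, 24.7, 12.7 and 7.46 CPM, an interaction of -1.52. The neutrophil list, of which 5 genes were members, summed to 179, 312, 155 and 180.3 CPM over the 15 listed genes. The other 2 members of that list did not share the pattern. *Prtn3*, the granule protease proteinase 3, had 26.0, 22.2, 25.3 and 48.1 CPM, an interaction of 1.15 (0.79 to 1.53), and *Mmp9*, a gelatinase, had 114, 148, 91.2 and 109 CPM, an interaction of -0.13 (-0.31 to 0.05). Mast cell markers had a negative interaction in 9 of 10, with a median of -0.60, and B cell markers in 10 of 10, with a median of -0.54. The mast cell sum was 1994, 2511, 1288 and 1087 CPM, and the B cell sum 1494, 1420.3, 1799 and 1242 CPM. Both sums were lowest in MCS at ZT14. The 11 T and natural killer cell members had a median of -0.37 and the list summed to 103, 141, 66.8 and 68.6 CPM. Hemoglobin and other red cell genes summed to 3.23, 36.7, 1.32 and 112 CPM over the 6 listed genes. Of the 3 members, 2 were higher with MCS at ZT2 and 3 at ZT14. Of the 4 eosinophil members, 2 had a positive interaction and 2, *Il5ra* and *Ear2*, a negative one. *Ccr3* had 5.31, 12.2, 1.32 and 33.8 CPM and *Siglecf* 1.27, 5.80, 0.659 and 14.1 CPM. Both were higher with MCS at both times, while *Il5ra* had 51.05, 49.1, 48.9 and 33.9 CPM. *Gzmb*, granzyme B of cytotoxic lymphocytes, had 2.77, 15.1, 2.42 and 1.64 CPM, an interaction of -2.94 (-4.23 to -1.78).

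The promoters of members that moved in opposite directions were searched for 10 short motifs, on both strands, in the 250 bases before the RefSeq transcript starts (GRCm38.p6), which were found for 47 of the 71 and 21 of the 32 genes. The shares of all 27025 genes with such a promoter were 6.86% for the E-box CACGTG, 2.44% for the D-box TTANGTAA and 15.8% for the receptor core AGGTCA. They were 1.77% for the CREB site TGACGTCA, 7.82% for the AP-1 site TGANTCA, 18.2% for the glucocorticoid receptor core AGAACA and 7.73% for the heat shock element GAANNTTC. They were 30.6% for the KLF site CCACCC, 1.03% for the E2F site TTTCCCGC and 18.3% for the cell cycle element TTTGAA. Among the 32 genes higher then lower, 15 of 21 held CCACCC (71.4%), against 36.6% of the members and 14 of 47 (29.8%) of the genes lower then higher. The AP-1 site was found in 4 of 21 and in 3 of 47, against 5.24% of the members, and AGGTCA in 5 of 21 and 6 of 47, against 12.6%. CACGTG was found in 2 of 21 and 7 of 47, against 10.4%. The other 6 motifs were found in between 0 and 4 of 21 genes and between 0 and 7 of 47. A match is a description of the sequence and not a bound site.

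The promoters shown here belong to *Serpinb2*, lower then higher, and to *Il1a*, *Itgax*, *Cxcr2* and *S100a9*, higher then lower. They were chosen because they carry an AP-1 or a KLF match in genes whose levels are given above. They are printed 5′ to 3′ on the gene's strand. Capitals mark TGANTCA in the first 3, and CCACCC or its reverse complement in the last 2. They lie at chr1:107511173-107511422 (plus strand), chr2:129309973-129310222 (minus), chr7:128129300-128129549 (plus), chr1:74153744-74153993 (plus) and chr3:90695722-90695971 (minus). Counted from the transcript start, the matches begin at -94, -12, -56, -56 and -92.
Serpinb2: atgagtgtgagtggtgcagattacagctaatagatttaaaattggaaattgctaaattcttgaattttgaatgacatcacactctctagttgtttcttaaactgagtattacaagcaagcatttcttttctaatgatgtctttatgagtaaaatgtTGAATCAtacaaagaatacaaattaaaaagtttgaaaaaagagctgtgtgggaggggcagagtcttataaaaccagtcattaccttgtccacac
Il1a: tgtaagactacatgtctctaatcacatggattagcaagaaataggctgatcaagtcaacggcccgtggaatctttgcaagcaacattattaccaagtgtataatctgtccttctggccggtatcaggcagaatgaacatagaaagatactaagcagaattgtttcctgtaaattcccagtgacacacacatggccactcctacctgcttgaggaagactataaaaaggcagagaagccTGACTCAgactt
Itgax: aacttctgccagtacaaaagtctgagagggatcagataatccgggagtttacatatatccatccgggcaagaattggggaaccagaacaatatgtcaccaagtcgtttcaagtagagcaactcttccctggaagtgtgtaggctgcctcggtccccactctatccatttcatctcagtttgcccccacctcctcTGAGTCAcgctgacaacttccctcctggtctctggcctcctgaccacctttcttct
Cxcr2: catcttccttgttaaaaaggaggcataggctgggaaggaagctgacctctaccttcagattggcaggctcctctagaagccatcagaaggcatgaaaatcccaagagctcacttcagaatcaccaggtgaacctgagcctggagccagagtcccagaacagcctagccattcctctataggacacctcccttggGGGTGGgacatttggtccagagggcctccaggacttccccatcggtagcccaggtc
S100a9: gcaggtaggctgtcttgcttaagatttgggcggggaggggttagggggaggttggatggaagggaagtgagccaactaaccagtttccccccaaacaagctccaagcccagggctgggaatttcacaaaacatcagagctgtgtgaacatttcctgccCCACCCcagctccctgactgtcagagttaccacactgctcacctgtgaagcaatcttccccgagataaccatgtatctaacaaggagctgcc

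Several of the largest opposite movements were in genes that share sequence with another gene, between which reads can be divided differently in each library. Of the 94 opposite genes with a transcript of that name in GENCODE, 66 shared no 100-base window with another gene. Sharing of at least 20%, or a partner that shared as much, was found in 14 genes lower then higher and 4 higher then lower. For 16 genes the partners were among the listed genes, and the sum of gene and partners moved in opposite directions beyond 0.5 in 2. The sum had opposite signs by any margin in 13 of the 16, against 60.2% of all members. For *Ass1* and *Akr1b3* these signs were turned from those of the gene. *Ass1*, argininosuccinate synthase, had 10.4, 4.18, 15.7 and 34.5 CPM, but its sum with *Gm5424* was 43.9, 45.2, 53.8 and 47.3 CPM. The sums turned the interaction of *Ass1* from 2.42 to -0.23, that of *Rpl26* with *Gm15772* from 2.62 to -0.04 and that of *Ubald2* with *Gm7367* from 2.24 to -0.18. They took *Gvin1* with *Gm4070* from -2.53 to -0.31 and turned *Akr1b3* with *Gm6644* from -1.60 to 0.68. The sum held for *Rpl22l1* with *Gm15421*, which had 15.2, 7.54, 11.2 and 39.7 CPM together, an interaction of 2.82, and for *Il11ra1* with *Il11ra2*, at 1.16 together. *Thbs1*, *Serpinb2*, *Nfil3*, *Ddit4*, *Tpx2*, *Atp5e*, *Per2*, *Il1a*, *F13a1*, *Folr2*, *Cxcr2* and *S100a9* shared 0%, and *Itgax* 3.70%. *Pira1*, a paired immunoglobulin-like receptor with 59.6, 13.5, 26.5 and 72.6 CPM and an interaction of 3.59, had no transcript of that name to compare.

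Beyond these lists, the signaling adaptor gene *Hcst* had 7.16, 3.48, 5.93 and 12.3 CPM, an interaction of 2.06 (1.26 to 2.93). The receptor phosphatase gene *Ptprg* had 5.08, 2.78, 6.26 and 10.7 CPM, an interaction of 1.61. *Nipal1*, a magnesium transporter gene, had 21.6, 11.3, 3.41 and 6.24 CPM, an interaction of 1.79. In *Nipal1* the log2 ratio of ZT2 to ZT14 was 2.63 in control, larger than the MCS to control ratios of -0.93 at ZT2 and 0.85 at ZT14. In MCS it was 0.84 and did not exceed them in size. In *Thbs1* the difference between the times was the larger one in both groups. *Adck5* and *Tmem160* had interactions of 1.64 and 1.82. On the other side, *Rprl3*, which encodes an RNA related to that of RNase P, had 475, 847, 723 and 287 CPM, an interaction of -2.17.

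The order of ZT2 and ZT14 itself was turned in some genes. In 37 members (0.363%) the level was higher at ZT2 in control and higher at ZT14 in MCS, each by more than 0.5 on the log2 scale with the interval off 0, and in 23 (0.226%) the order was turned the other way. Centered on transcript length the numbers were 24 and 29, of which 20 and 20 were among those genes, and with unadjusted library totals 29 and 32. *Serpinb2* and *Ddit4* belong to the 37, with log2 ratios of ZT2 to ZT14 of 0.85 and 1.06 in control and -0.61 and -0.59 in MCS. *Ccr3* had 1.93 and -1.47. *Inpp5j*, an inositol phosphatase, had 2.43, 7.31, 0.110 and 11.7 CPM, and the control at ZT14 rests on a single read. *F13a1* belongs to the 23, with -0.77 in control and 1.04 in MCS, and so do *Cxcl13*, with -1.18 and 1.07, *Egr3*, with -0.68 and 1.43, and *Dtx1*, a regulator of Notch signaling, with -0.87 and 0.88. *Dtx1* itself had 29.8, 35.96, 54.5 and 19.4 CPM. *Hal*, histidine ammonia-lyase, had 312, 398, 326 and 144 CPM, an interaction of -1.53, with controls that were nearly level.

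Most of the remaining lists had medians nearer 0. Median interactions were 0.21 for 19 ER stress genes, with 16 positive, 0.26 for 22 interferon-stimulated genes, with 14 positive, and 0.14 for 20 sterol synthesis genes. They were 0.07 for 14 chemokine genes and -0.14 for 8 cytokine genes. PPAR and LXR targets had -0.17 over 12 members, iron and heme genes 0.02 over 14, and retinoid genes -0.07 over 12. Complement genes had 0.02 over 17, lysosome genes 0.09 over 27, and actin regulators 0.09 over 33, medians close to that of all members. Of the 21 phagocytic receptor genes described above, 1 had an interaction above 1 and 2 below -1, against 2.31% and 1.41% of all members. Kruppel-like factors had -0.27 over 11 members, with 8 negative, and the 6 snRNA and rRNA genes 0.17. The 10 macrophage markers had 0.16, with 9 positive, and the 3 dendritic cell members -0.13. The 4 eosinophil members had 1.05, with 2 positive and 2 negative, and the 2 mesothelial and fibroblast members 0.20.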

How the data were processed

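RNA was measured in sorted peritoneal macrophages, 1 library for each of control and MCS at ZT2 and ZT14. The submitters' processing notes name Trimmomatic 0.38, RSEM 1.3.0, Bowtie 2, edgeR and the mm10 build, and rRNA-depleted, directional libraries were read as paired ends of 150 nt. The annotation and any filter on genes are not given in the sources used here. The authors deposited CPM values per gene, which multiplied by 1 library size per column gave whole reads, within 0.05 of a read, for 100% of values. Relative library sizes were those given by TMM scaling in edgeR. Groups came from the labels, and 0 columns of other samples were present.

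From these values, log2 ratios after adding 0.1 CPM, the interaction, and 95% exact intervals from the reads were computed with Python 3.11.15, numpy 2.4.6, pandas 2.3.3 and scipy 1.17.1, and drawn with matplotlib 3.10.9. Intervals cover counting error only. A floor of 3 reads corresponded to 0.307 to 0.348 CPM. Members, the 39 gene lists and the thresholds were chosen with earlier results of these data known. Named genes were the 12 opposite genes in each direction with the largest smaller ratio, the 10 with the interval farthest from 0, up to 8 that turned the order of the times, opposite genes of a list, and the extreme and most abundant genes of a list. Predicted or copied names were not ranked. *Zeb1*, *Tmem97* and *Ppargc1b* fell outside this rule and were chosen after their values were seen. *H2-Ab1*, *Il11ra1* and the partners named for shared sequence also fell outside it.

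Transcript lengths and shared sequence came from GENCODE M21 transcripts (99.5% of members matched by symbol), and promoters from RefSeq GRCm38.p6. The computations were tested on simulated data. With 1 library per condition the interaction has no test. An additive edgeR quasi-likelihood test (edgeR 4.0.16 in R 4.3.3), added after seeing the data, has 1 residual degree of freedom and tests an MCS effect common to both times. It called 19 of 10180 genes at an adjusted p of 0.05 and 210 at an unadjusted 0.05. It called 0 of the genes that moved in opposite directions. Opposite movements largely cancel in a common effect, so this count follows from how those genes were defined and says nothing about them.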

Additional observations from a re-analysis of the deposited data

Results flagged for a closer look

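The ratio of MCS to control lay on opposite sides at ZT2 and ZT14, beyond 0.5 on the log2 scale, in 71 genes lower then higher and 32 genes higher then lower. With 1 library per condition these differences were not tested. Among named genes lower then higher, the interactions were *Pira1* 3.59, *Ass1* 2.42, *Hcst* 2.06, *Rpl22l1* 2.94, *Ubald2* 2.24, *Rpl26* 2.62, *Nipal1* 1.79, *Atp5e* 2.15 and *Ptprg* 1.61. Further interactions in this direction were *Adck5* 1.64, *Rpl39* 1.82, *Tmem160* 1.82, *Thbs1* 1.99, *Vmn2r26* 1.81, *Nfil3* 1.51, *Ddit4* 1.64, *Tpx2* 1.96 and *Slc7a11* 1.25. The remaining ones in this direction were *Serpinb2* 1.46, *Rpl34* 1.63, *Rplp1* 1.54, *Ndufa2* 1.61, *Ndufs3* 1.31, *Cox5a* 1.01 and *Cox7a2* 1.66. Among named genes higher then lower, they were *S100a9* -5.12, *Gvin1* -2.53, *Rprl3* -2.17, *Clk2-scamp3* -1.67 and *Per2* -1.63. In the same direction stood *Il1a* -1.59, *Cxcr2* -1.52, *Akr1b3* -1.60, *F13a1* -1.81 and *Itgax* -1.62. Last in this direction were *P2ry6* -1.57, *Sulf2* -1.30, *Folr2* -1.29, *Clec7a* -1.04 and *Kcna3* -1.18. For *Ass1*, *Ubald2*, *Rpl26*, *Gvin1* and *Akr1b3*, adding the CPM of the partners that share sequence with them brought the interaction nearer 0 or turned its sign, as given above.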

How the results depend on the processing

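Each setting was changed alone. With a minimum mean of 1 CPM, 363 genes had an interaction above 1 and 316 an interaction below -1, 54 were higher with MCS at ZT2 and lower at ZT14, and 38 were higher at ZT14 in control and at ZT2 in MCS. With 20 CPM the 6 counts were 80, 51, 23, 12, 12 and 9. With no minimum, 393 and 353 interactions, 56 genes higher then lower and 40 turned from ZT14 were found. An interaction limit of 0.6 gave 812 and 656, and a limit of 2 gave 21 and 10. A ratio limit of 0.25 gave 307 and 215 opposite and 156 and 171 turned genes, and a limit of 1 gave 7 and 4, and 3 and 3. More or fewer genes enter by construction. Genes called at 5 CPM were also less abundant than the members as a whole. The median of their mean CPM was 12.7 for interactions above 1 and 12.6 for those below -1. It was 15.7 for genes lower then higher and 15.5 for genes higher then lower, against 32.2 for all members. Length centering gave 43 genes lower with MCS at ZT2 and higher at ZT14 and 24 genes higher at ZT2 in control and at ZT14 in MCS, and the cause was not tested. Other counts stayed within 1.5 times under pseudocounts of 0.01 and 1 CPM, median rescaling and unadjusted totals. They also did when predicted names, genes that share sequence (57 and 28 opposite genes left) or the interval were left out. TMM rescaling could change nothing, because the CPM already carried TMM sizes and its factor was 1 in all 4 libraries. Median rescaling was a small change, with factors between 0.993 and 1.007. Length centering, unadjusted totals, shared sequence and the additive test were chosen after seeing the data. Of 303 named genes, length centering moved 64 beyond their counting interval, unadjusted totals 15 and a pseudocount of 1 CPM 2. The sign changed in 14 of the 303 under length centering, among them *Pf4* (0.35 to -0.02), *Lyz2* (0.11 to -0.10) and *H2-Eb1* (0.08 to -0.11), in 9 under unadjusted totals and in 1 with a pseudocount of 1 CPM, and in 0 of those with an interaction past 1. Median interactions near 0 also turned negative, for chemokine and lysosome genes under length centering, complement genes under unadjusted totals, and iron and heme genes under both. No paired analysis was possible because each condition has 1 library, and no replicate could be left out for the same reason. Depth limits genes near 5 CPM, where 1 read is worth at least 0.102 CPM.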
